A study of Homo sapiens with 9 samples.

Results

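The MYC network is a set of transcription factors of the basic helix-loop-helix leucine zipper class that share the partner MAX, and 10 of its genes were followed here among the 60708 genes counted: *MYC*, *MYCN*, *MYCL*, *MAX*, *MXD1*, *MXD4*, *MXI1*, *MNT*, *MGA* and *MLX*. They were chosen by gene symbol, with earlier results of these data known, and each matched 1 gene identifier in every library. The libraries were labelled as MDA-MB-231, an established human triple-negative breast cancer line of the basal type, grown untreated in medium with serum. The WT group held 3 libraries, and 2 further groups of 3 libraries, labelled CS16 and CS19, were each labelled as 1 single-cell clone made with CRISPR/Cas9 guides against *SNAI1*, the gene of an EMT transcription factor. These clones also went through plasmid transfection, puromycin selection and single-cell growth, which the labels do not give for WT cells. *SNAI1*-KO stands here for the 6 libraries of both clones. Because each clone is 1 line, an effect of the edit, a trait of the clone and a difference in the line of origin cannot be told apart.

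MYC, MYCN and MYCL form dimers with MAX that activate transcription at E-box sequences, and MYC is known as a driver of growth, ribosome production and metabolism in breast and other cancers. The proteins of *MXD1*, *MXD4*, *MXI1*, *MNT* and *MGA* also bind MAX, compete with MYC for it and recruit corepressors to the same sites. MLX takes the place of MAX in a parallel branch of the network, where it pairs with the glucose sensors encoded by *MLXIP* and *MLXIPL*.

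Libraries held between 19527195 and 28627777 counted read pairs. *SNAI1* itself was counted 16, 38 and 21 times in the WT libraries, 26, 40 and 49 times in those labelled CS16 and 57, 94 and 94 times in those labelled CS19, so its counts were not lower in the libraries labelled *SNAI1*-KO, and they were higher in CS19 than in WT (log2 fold change 1.32, adjusted p = 0.031 by edgeR). A count over the whole gene does not resolve the edited bases, and all directions given here follow the labels. WT-2 stood apart from the other WT libraries: the chi-square per degree of freedom over genes was 187.9 and 230.2 against WT-1 and WT-3, which differed from each other by 14.61. The 8 basal breast markers summed to 6420 to 6950 CPM (counts scaled to library size) in WT, 566 to 587 in CS16 and 530 to 568 in CS19, with *CD44*, 1 of the 8, at or near 0 in both clones. Mammary luminal markers (8 genes) summed to 1460 to 2140, 56.4 to 57.8 and 83.2 to 98.9 CPM, with *FOXA1* at the floor of 3 counts in WT, *KRT19* in both clones and *ELF3* in CS16. The 3 genes at 9p21, *CDKN2A*, *CDKN2B* and *MTAP*, had no count in WT and summed to 169 to 175 CPM in CS16 and 164 to 182 in CS19. *MTAP* alone held 99.4 to 107 CPM in the clones, and *CD44* held 571 to 789 CPM in WT. These levels leave the identity of the clone libraries in doubt, and whether all libraries share 1 line of origin was not tested. Each difference from WT given here therefore compares libraries as labelled. Embryonic kidney markers (8 genes, 4 of them at the floor in WT and 1 in each clone) summed to 57.8 to 74.8, 135 to 143 and 142 to 158 CPM, and neuroendocrine markers (8 genes, 5 of them at the floor in WT) to 4.26 to 9.06, 38.2 to 47.5 and 61.5 to 68.9 CPM. Haematopoietic markers (6 genes) summed to between 2.35 and 6.72 CPM in all groups, with *CD3E*, *SPI1* and *HBB* at the floor throughout. Fibroblast markers (6 genes) summed to 58.4 to 127, 62.2 to 66.6 and 10.3 to 12.5 CPM, with *DCN* at the floor in every group and *COL1A2* in both clones. The part of these differences in the results on the MYC network was not tested. In bulk RNA, fewer cells of a type and less RNA per cell cannot be told apart.

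The dimers of the network read a short DNA word, the E-box CACGTG, which is the same on both strands. It was searched in the RefSeq promoter windows of GRCh38.p14, from 250 bases before to 50 bases after each start, where 2548 of 35116 windows held it (7.26%). Of the 9 members with an entry (*MYC* had none), 3 held it: *MXD4*, *MNT* and *MLX*. The windows of these members, with the E-box in capitals, are shown 5′ to 3′ in the direction of transcription.
MXD4: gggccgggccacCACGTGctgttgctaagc
MNT: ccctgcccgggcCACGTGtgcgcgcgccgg
MLX: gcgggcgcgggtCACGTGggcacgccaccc
The *MXD4* stretch lies at chr4:2262330-2262359 on the minus strand, with the E-box at -238 from the start of transcription. For *MNT* it lies at chr17:2401236-2401265 on the minus strand, with the E-box at -193. For *MLX* it lies at chr17:42567038-42567067 on the plus strand, with the E-box at -50. All of these E-boxes lie before the RefSeq start of their gene, outside its transcript. A match describes the sequence only, and a window without it says nothing of binding elsewhere.

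*MYC* was by far the most abundant of its class in every library, and it passed the test between the labelled clones but not between either clone and WT. The gene lies at chr8:127735434-127742951 (GRCh38.p13, plus strand), with 4584 bases of merged exons. In WT-1, WT-2 and WT-3 it reached 103, 153 and 112.7 CPM. The libraries labelled CS16 held 175, 155 and 176 CPM, and those labelled CS19 held 98.0, 124 and 99.9 CPM. All CS16 libraries lay above all WT libraries, although CS16-2 exceeded WT-2 by little, while the CS19 and WT ranges overlapped. CS16 against CS19 gave a log2 fold change of 0.65 (SE 0.09, 95% confidence interval 0.46 to 0.84, adjusted p = 0.000113, edgeR with Benjamini-Hochberg adjustment over all genes tested). Against WT, CS16 gave 0.49 (SE 0.20, adjusted p = 0.0763) and CS19 gave -0.16 (SE 0.22, adjusted p = 0.564). The CS16 value depended on WT-2: without that library it gave 0.64 (adjusted p = 3.05e-05), while CS19 gave 0.01 (adjusted p = 0.947). Over all 6 labelled clone libraries the difference from WT was 0.17 (adjusted p = 0.549).

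*MYCL*, first found amplified in small cell lung cancer, showed the largest difference of the tested members between the labelled clones and WT. It lies at chr1:39895426-39902256 on the minus strand. WT libraries held 0.985, 0.513 and 0.564 CPM. Those labelled CS16 held 8.53, 7.97 and 7.68 CPM, and those labelled CS19 held 5.69, 4.86 and 5.77 CPM. The 3 groups did not overlap in any pair. *MYCL* rose by a log2 fold change of 3.27 in *SNAI1*-KO against WT (SE 0.32, adjusted p = 3.98e-06), which is 9.66-fold. The rise was 3.56 in CS16 (adjusted p = 8.94e-05) and 3.00 in CS19 (adjusted p = 0.000207), and CS16 exceeded CS19 by 0.56 (SE 0.13, adjusted p = 0.00584). An antisense gene, *MYCL-AS1*, shares 226 bases with its exons and had at most 8 counts in any library. Read pairs in the shared bases were assigned to neither gene.

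*MYCN*, the family member of neuroblastoma and of embryonic tissues, was seen in a single group. It lies at chr2:15940550-15947007 on the plus strand. The libraries labelled CS16 held 12, 9 and 14 counts, or 0.588, 0.430 and 0.557 CPM, and no WT or CS19 library held a count. With a floor of 3 counts per library, CS16 was at least 3.33-fold higher than WT and at least 4.32-fold higher than CS19, and floors cover counting error only. The gene fell under the abundance filter of the main test. When no filter was applied, edgeR gave an adjusted p of 0.000166 for CS16 against WT and 2.18e-07 for CS16 against CS19, and DESeq2 gave 0.000277 for the former and no adjusted p for the latter. For *SNAI1*-KO against WT, where the 3 CS19 libraries were at 0, the unfiltered adjusted p was 0.0297 in edgeR and 0.217 in DESeq2. The antisense gene *MYCNOS* shares 98 bases with its exons and held at most 1 count in any library. The nearest tested gene on the far side, *CYRIA*, 602 kb away, had means of 0.286, 1.01 and 0.0695 CPM in WT, CS16 and CS19, and CS16 differed from CS19 (adjusted p = 8.07e-05). On the near side *DDX1*, a helicase gene often co-amplified with *MYCN*, was 306 kb away and rose by 1.07 in *SNAI1*-KO (adjusted p = 0.000684), with means of 136, 305 and 267 CPM.

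**Figure D1:**
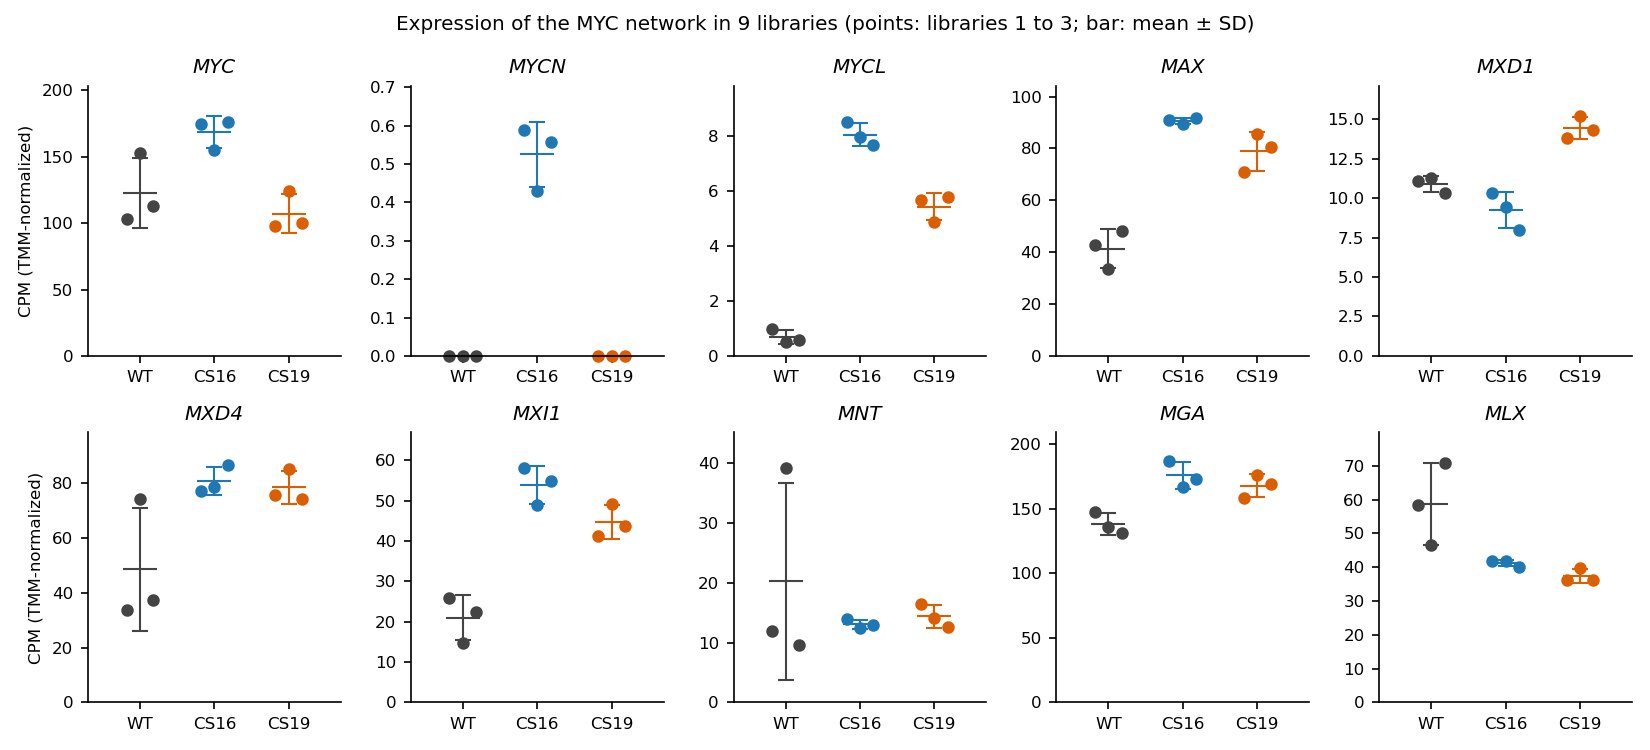
CPM, scaled by TMM, of the 10 network genes on a linear axis from 0, by group (WT, CS16, CS19). Points are libraries 1 to 3 from left to right, and bars give the mean ± SD (n = 3). *MYCL*, *MAX* and *MXI1* were higher in all 6 clone libraries than in any WT library, *MYCN* had counts in CS16 alone, and WT-2 was the highest WT library for *MYC*, *MXD4* and *MNT*.

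*MAX*, the shared partner, was higher in both labelled clones. It lies at chr14:65006174-65102695 on the minus strand. WT libraries held 42.6, 33.4 and 48.2 CPM, CS16 libraries 90.8, 89.5 and 91.6 CPM, and CS19 libraries 70.8, 85.5 and 80.6 CPM. Every clone library exceeded every WT library. *MAX* rose by a log2 fold change of 1.03 in *SNAI1*-KO (SE 0.16, adjusted p = 0.000128), by 1.16 in CS16 (adjusted p = 0.00137) and by 0.97 in CS19 (adjusted p = 0.00453). CS16 and CS19 differed by 0.20 with an interval of 0.04 to 0.35 (adjusted p = 0.0592). *FNTB*, a farnesyltransferase subunit gene on the opposite strand, covers 822 bases of the *MAX* exons (13.1%), and read pairs in such shared bases were assigned to neither gene. *FNTB* counts ranged from 102 to 180 in WT and from 207 to 339 in the clones.

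Among the antagonists, *MXI1* had the largest log2 fold change in *SNAI1*-KO with all libraries, and *MXD4* the largest without WT-2, at 1.15 beside 1.03 for *MXI1*. WT libraries held 25.8, 14.8 and 22.3 CPM, CS16 libraries 58.0, 48.8 and 54.9 CPM, and CS19 libraries 41.1, 49.2 and 43.8 CPM. The clone groups lay above WT and overlapped each other. *MXI1*, at chr10:110207605-110287365, rose by a log2 fold change of 1.23 in *SNAI1*-KO (SE 0.20, adjusted p = 0.000206), by 1.39 in CS16 (adjusted p = 0.00213) and by 1.13 in CS19 (adjusted p = 0.00593). CS16 exceeded CS19 by 0.27 (SE 0.09, adjusted p = 0.0365), a call that was lost without CS16-1, CS16-3, CS19-1 or CS19-3, with an adjusted p of up to 0.155.

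*MXD1*, a gene usually induced as cells differentiate, moved apart between the clones. WT libraries held 11.1, 11.3 and 10.3 CPM, CS16 libraries 10.3, 9.45 and 8.0 CPM, and CS19 libraries 13.8, 15.2 and 14.3 CPM. CS19 lay above both other groups, and the highest CS16 library lay just under the lowest WT library, both at 10.3 CPM. *MXD1*, at chr2:69897688-69942945, was lower in CS16 than in CS19 by a log2 fold change of -0.65 (SE 0.11, adjusted p = 0.000698). Neither clone passed against WT, with -0.21 in CS16 (adjusted p = 0.403) and 0.44 in CS19 (adjusted p = 0.0744). Without WT-2 the CS19 value was 0.45 (adjusted p = 0.00494). *SNRNP27* shares 237 bases of its exons on the same strand.

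*MXD4* is the MXD gene linked to exit from the cell cycle. WT libraries held 33.8, 74.1 and 37.5 CPM, CS16 libraries 77, 78.6 and 86.4 CPM, and CS19 libraries 75.6, 85.2 and 74.3 CPM. WT-2 lay next to the clones, and the other WT libraries lay far under them. *MXD4*, at chr4:2247432-2262109, rose by 0.71 in *SNAI1*-KO (SE 0.23, adjusted p = 0.017) and gave 0.76 in CS16 (adjusted p = 0.0747) and 0.73 in CS19 (adjusted p = 0.0879). Without WT-2 the rise was 1.15 in *SNAI1*-KO (adjusted p = 1.58e-06), and without WT-1 or WT-3 the call was lost, with an adjusted p of up to 0.0787. CS16 and CS19 differed by 0.04, with an interval of -0.12 to 0.20.

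*MNT*, the antagonist that most cells express throughout the cycle, was decided by 1 library. WT libraries held 12, 39.3 and 9.59 CPM, CS16 libraries 13.9, 12.4 and 12.9 CPM, and CS19 libraries 16.5, 14.1 and 12.7 CPM. WT-1 and WT-3 lay under every clone library, and WT-2 lay far above all of them. The log2 fold change in *SNAI1*-KO was -0.56 (SE 0.36, adjusted p = 0.192), and without WT-2 it was 0.34 (adjusted p = 0.0666). It passed in opposite directions with other libraries left out: at -0.87 in *SNAI1*-KO without WT-3 (adjusted p = 0.0371), and at 0.43 in CS19 against WT without WT-2 (adjusted p = 0.0176). *MNT* lies at chr17:2384073-2401104.

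*MGA* encodes a very large protein that carries the MAX-binding domain next to a T-box and takes part in a Polycomb complex. WT libraries held 147, 136 and 131 CPM, CS16 libraries 187, 167 and 173 CPM, and CS19 libraries 158, 176 and 169 CPM. The 6 clone libraries lay above WT, by a small margin. *MGA*, at chr15:41621134-41773081, rose by 0.31 in *SNAI1*-KO (SE 0.12, adjusted p = 0.0384). The call was lost in 6 of 9 fits that left out a library, those without WT-3, CS16-1, CS16-2, CS16-3, CS19-2 or CS19-3, with an adjusted p of up to 0.0853. In each clone alone it gave 0.37 (adjusted p = 0.082) and 0.31 (adjusted p = 0.143).

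*MLX* was the member that fell. WT libraries held 58.4, 46.5 and 70.8 CPM, CS16 libraries 41.7, 41.9 and 40.2 CPM, and CS19 libraries 36.2, 39.9 and 36.1 CPM. Every clone library lay under every WT library. The log2 fold change in *SNAI1*-KO was -0.58 (SE 0.15, adjusted p = 0.00488), and it was -0.48 in CS16 (adjusted p = 0.0714) and -0.61 in CS19 (adjusted p = 0.0353). The CS19 call was lost without any library other than WT-2, with an adjusted p of up to 0.159, and without WT-2 both clones passed, with -0.65 (adjusted p = 5.07e-05) and -0.77 (adjusted p = 3.10e-06). *MLX*, at chr17:42567072-42573239, shares 775 exon bases (18.2%) with *PSMC3IP* on the opposite strand, whose counts ranged from 230 to 297 in WT and from 232 to 381 in the clones.

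In all, 6 of the 9 tested members passed an adjusted p of 0.05 in *SNAI1*-KO against WT, 5 higher and 1 lower, beside 63.7% of the 19631 genes tested (31.1% higher and 32.6% lower). Only *MYCL* was also past a log2 fold change of 2, beside 26.9% of genes. In 6 of the 9 the clone and WT libraries did not overlap, as in 58.3% of genes. The members thus passed about as often as genes did in general. Without WT-3, 10 members could be tested, of which 3 passed higher and 2 lower. The share over all genes in that fit is not given. In CS16 against WT 3 of 9 passed (*MYCL*, *MXI1*, *MAX*), beside 55.6% of genes (27.0% higher and 28.6% lower), and in CS19 against WT the same genes and *MLX*, 4 of 9, beside 52.9% (26.3% higher and 26.6% lower). The groups did not overlap for 8 of 9 members in CS16, beside 67.4% of genes, and for 7 of 9 in CS19, beside 65.3%. *MYCL* alone was past a log2 fold change of 2, beside 27.1% and 26.4% of genes. These comparisons share their WT libraries. Without WT-2, 8 members passed in CS16, where 10 could then be tested, beside 72.7% of genes. The 8 include *MYCN* (adjusted p = 0.000238, edgeR), which had no WT count and entered the test through CS16 alone. In CS19 without WT-2, 8 of 9 passed, beside 71.2% of genes.

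Between the clones, 4 of 9 members passed, *MYC*, *MYCL* and *MXI1* higher in CS16 and *MXD1* lower, beside 27.4% of the 17538 genes tested (14.7% higher and 12.7% lower). The clones did not overlap for 5 of 9, beside 40.5% of genes. None was past a log2 fold change of 2 here, beside 1.13% of genes (0.633% higher and 0.496% lower). This comparison uses no WT library. When all 9 libraries shared 1 estimate of spread, WT-2 included, 0 members passed in edgeR and 3 had an unadjusted p under 0.05 (*MYC*, *MYCL* and *MXD1*), and the log2 fold changes were 0.65 for *MYC* (adjusted p = 0.0943), -0.64 for *MXD1* (adjusted p = 0.0616), 0.57 for *MYCL* (adjusted p = 0.262) and 0.27 for *MXI1* (adjusted p = 0.68).

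**Figure D2:**
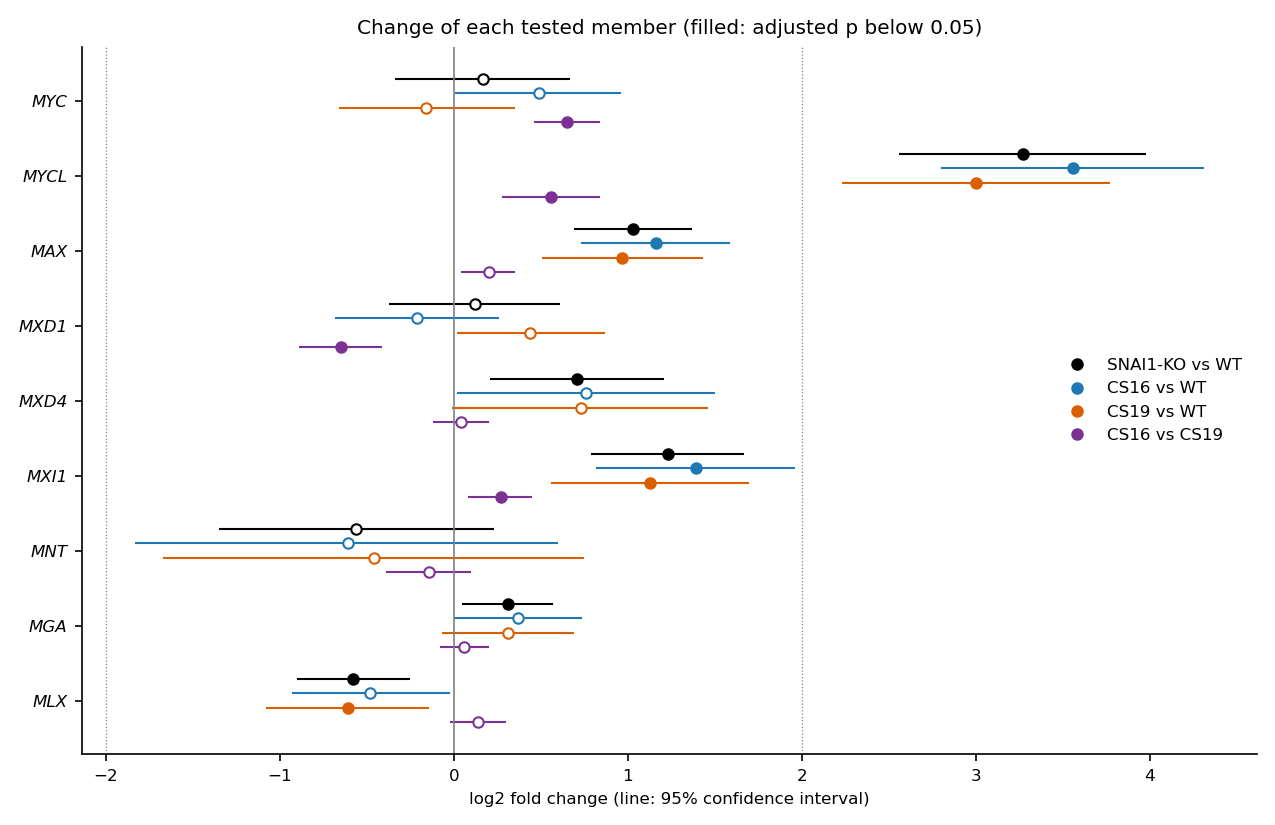
Log2 fold change of the 9 tested members in 4 comparisons, with 95% confidence intervals from edgeR. Filled points passed an adjusted p of 0.05, and dotted lines mark a log2 fold change of 2 in size. *MYCL* lies at 3.00 to 3.56 in the comparisons with WT, and the intervals of *MNT* are the widest.

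Levels were compared between genes as CPM per kilobase of merged exon. *MYC* ranked first in every group, with 26.8 ± 5.77 in WT, 36.8 ± 2.56 in CS16 and 23.4 ± 3.19 in CS19 (SD, n = 3). In WT it was followed by *MLX* at 13.8, and then *MGA* at 7.06, *MXD4* at 7.05 and *MAX* at 6.62, which overlapped as neighbours. In both clones *MAX* was second, at 14.5 ± 0.17 in CS16 and 12.6 ± 1.20 in CS19, and *MXD4* came next, at 11.7 and 11.4. *MAX* and *MXD4* overlapped in CS19 and not in CS16. *MLX*, *MXI1* and *MGA* held the middle ranks, between 7.57 and 9.70, and each overlapped the next in both clones. The lowest ranks in WT were *MNT* at 2.33, *MXD1* at 1.71, *MYCL* at 0.136 and *MYCN* at 0. In CS16, *MYCL* reached 1.59 and overlapped *MNT* at 1.5, which overlapped *MXD1* at 1.46. In CS19, *MXD1* at 2.28, *MNT* at 1.66 and *MYCL* at 1.07 kept apart. Ranked by CPM without length, *MGA*, with 19590 bases of exon, would come first in all groups.

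Summed by role, the activators *MYC*, *MYCN* and *MYCL* reached 26.9 ± 5.69 CPM per kilobase in WT, 38.6 ± 2.6 in CS16 and 24.5 ± 3.12 in CS19. *MYC* made up 99.4% ± 0.306 of that sum in WT, 95.3% ± 0.321 in CS16 and 95.5% ± 0.924 in CS19. The 5 antagonists reached 21.7 ± 4.20, 32.8 ± 1.46 and 31.5 ± 1.95. The ratio of activators to antagonists was 1.24 ± 0.0917 in WT, 1.18 ± 0.0321 in CS16 and 0.776 ± 0.0482 in CS19, where no library exceeded 0.832 and no other library fell under 1.14. *MAX* per kilobase was below both sums in every group, and the activators exceeded it by a ratio of 4.27 ± 1.73 in WT, 2.66 ± 0.15 in CS16 and 1.94 ± 0.142 in CS19. The WT spread of that ratio came from WT-2, at 6.26 beside 3.33 and 3.21. *MYC* over *MXD1* was 15.6 ± 2.97, 25.6 ± 4.23 and 10.3 ± 0.91, with no overlap between groups. These are mRNA ratios with members added as equals, given as a description with no test.

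**Figure D3:**
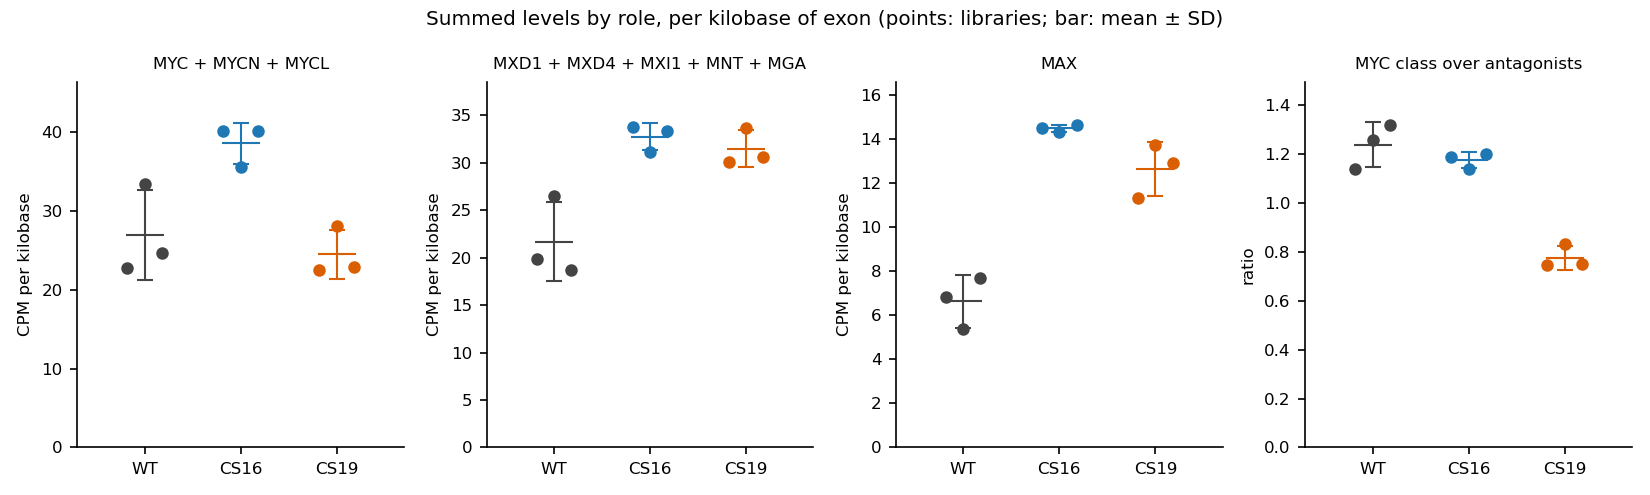
Summed CPM per kilobase of the activators, of the 5 antagonists and of *MAX*, and the ratio of the first sum to the second, on linear axes from 0. Points are libraries and bars give the mean ± SD (n = 3). The ratio lies between 0.747 and 0.832 in the CS19 libraries and between 1.14 and 1.32 in the others, while *MAX* is higher in both clones than in WT.

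Of the remaining genes of the network, *MXD3*, an MXD gene expressed in dividing cells, fell. WT libraries held 20.0, 47.5 and 22.2 CPM, CS16 libraries 7.11, 6.92 and 8.36 CPM, and CS19 libraries 10.2, 9.37 and 10.4 CPM, with no overlap. Its log2 fold change was -1.78 (SE 0.26, adjusted p = 0.000106), and -1.28 without WT-2 (adjusted p = 4.14e-05). With *MXD3* added, the antagonists summed to 27.5 ± 7.11 CPM per kilobase in WT, 34.2 ± 1.5 in CS16 and 33.4 ± 1.84 in CS19. The ratio of activators to antagonists was then 0.989 ± 0.0792 in WT, 1.13 ± 0.0265 in CS16 and 0.731 ± 0.0508 in CS19, so the order of WT and CS16 turned and CS19 stayed lowest. *MLXIPL*, which encodes ChREBP, held 0.985, 4.73 and 0.564 CPM in WT and between 5.83 and 7.80 CPM in the clones. It rose by 1.74 in *SNAI1*-KO (adjusted p = 0.0122), by 3.15 without WT-2 (adjusted p = 1.19e-06), and lost the call without WT-1. *MLXIP*, which encodes MondoA, held 207 CPM in WT-2 and between 32.7 and 47.5 CPM in every other library, and gave -1.07 (adjusted p = 0.0544) with WT-2 and 0.27 (adjusted p = 0.0486) without it.

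Noncoding genes next to *MYC* were lower in both clones, where *MYC* itself did not pass. *PVT1*, a long noncoding RNA gene 51.6 kb downstream that is often amplified with *MYC*, held 66.0, 111.2 and 46.6 CPM in WT. It held 13.1, 12.3 and 13.8 CPM in CS16 and 13, 9.85 and 10.5 CPM in CS19, far under every WT library. *PVT1* fell by a log2 fold change of -2.63 (SE 0.23, adjusted p = 1.57e-06), and by -2.23 without WT-2. *CASC8*, 253 kb on the other side, held 7.78, 2.62 and 8.0 CPM in WT and no count in any clone library, at least 47.5-fold lower with a floor of 3 counts per library. *CASC19*, another noncoding gene of that side, held 1.77, 2.17 and 1.54 CPM in WT. It had no count in CS16, at least 13.4-fold lower, and 2, 1 and 3 counts in CS19 (adjusted p = 0.000103 against WT). *MYCNUT*, beside *MYCN*, had no count in any library.

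**Figure D4:**
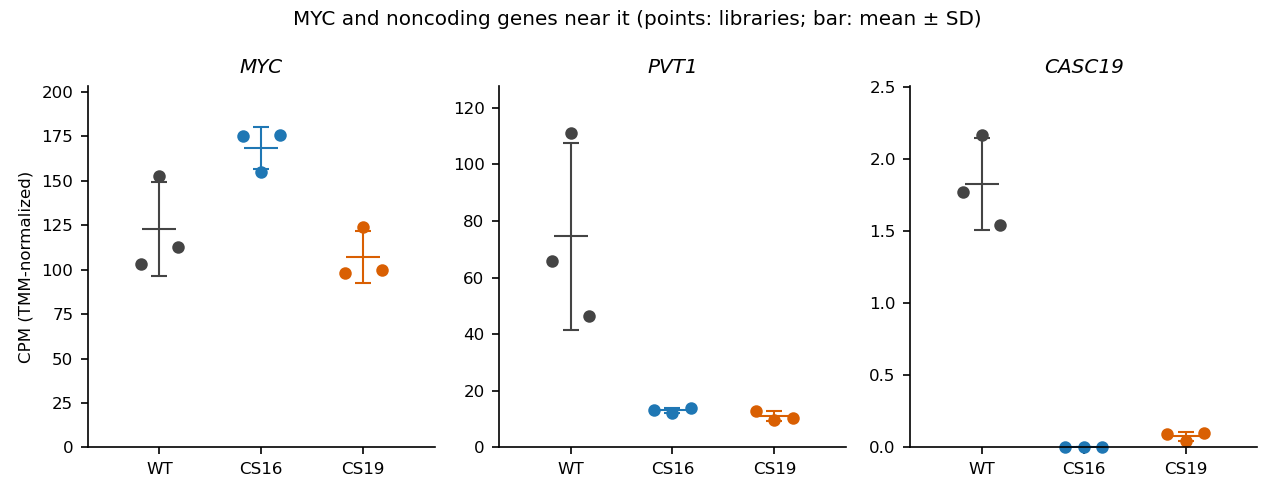
CPM of *MYC* and of the noncoding genes *PVT1* and *CASC19* in each library, on separate linear axes from 0. Points are libraries 1 to 3 and bars give the mean ± SD (n = 3). Both noncoding genes lie far lower in all 6 clone libraries than in WT, while *MYC* lies above WT in CS16 and overlaps it in CS19.

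To ask which genes followed the same course, mean-centred log2 CPM was compared over the 9 libraries among 15590 other genes, by the root mean square difference. The closest to *MYC* were *OAF* (0.0721), *RNPEP* (0.0845) and *OS9* (0.0876), with *OS9* at 104, 149 and 87.7 CPM in WT, CS16 and CS19. The closest to *MYCN* were *VSNL1* (0.375), *DPYSL3* (0.436) and *MYOM2* (0.445). *DPYSL3* had means of 5.37, 34.0 and 2.84 CPM. The closest to *MXD4* were *PLEKHO1* (0.045), *MPST* (0.0553) and *AP1B1* (0.0565), in which WT had the widest spread, as *MPST* with 49.0 ± 24.6, 80.8 ± 3.45 and 76.0 ± 4.34 CPM. WT-2 is among the 9 libraries.

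Of the coactivators of MYC, 1 of 16 rose and 6 fell in *SNAI1*-KO, with a median log2 fold change of -0.22, beside 0.0 over all genes tested, where 31.1% rose and 32.6% fell, but this balance came with WT-2: without that library 4 rose and 4 fell, with a median of 0.18. *RUVBL1*, an ATPase of chromatin remodelling complexes, rose by 1.39 (SE 0.16, adjusted p = 1.50e-05) from 80.5 to 89.3 CPM in WT to 180 to 262 CPM in the clones. *CDK9*, the kinase that releases paused polymerase, fell by a log2 fold change of -1.31 (adjusted p = 0.000699), and by -0.77 without WT-2 (adjusted p = 9.89e-05). *CREBBP*, an acetyltransferase gene, gave -1.14 (adjusted p = 0.0338) with WT-2 and 0.06 (adjusted p = 0.692) without it, and also lost the call without CS16-1, CS16-2, CS19-1 or CS19-3, where 1 coactivator was higher and 3 were lower.

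Corepressors used by the antagonists numbered 14, of which 4 rose and 6 fell in *SNAI1*-KO, near the shares over all genes (31.1% and 32.6%), with a median of -0.06. *L3MBTL2*, a partner of MGA in its Polycomb complex, rose by 1.37 (SE 0.19, adjusted p = 7.42e-05), from 25.1 to 46.2 CPM in WT to 79.2 to 90.8 CPM in the clones. *RNF2*, the ubiquitin ligase of Polycomb complexes, rose by 1.18 (adjusted p = 0.00177), and *HDAC2*, a histone deacetylase, by 1.15 (adjusted p = 0.000197). *ZBTB17*, which encodes MIZ1, a factor through which MYC represses, fell by a log2 fold change of -1.31 (adjusted p = 0.000184), with 34.1 to 67.1 CPM in WT and 15.4 to 22.3 CPM in the clones. *SIN3B*, a scaffold that binds MXD proteins, gave -1.06 with WT-2 (adjusted p = 0.00459) and -0.44 without it (adjusted p = 0.00203).

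Kinases, ligases and deubiquitinases that act on MYC proteins numbered 18, of which 5 rose and 4 fell, or 9 of 18 in all, beside 63.7% of genes, with a median of 0.13. *SKP2*, a ubiquitin ligase subunit for MYC and for CDK inhibitors, rose by 1.61 (SE 0.20, adjusted p = 2.24e-05). It also differed between the clones, with 262 to 286 CPM in CS16 and 189 to 198 CPM in CS19 (log2 fold change 0.50, adjusted p = 5.43e-05). *PPP2R5A*, a phosphatase subunit, rose by 0.90 (adjusted p = 0.00324), and *USP28*, a deubiquitinase of MYC, by 0.78 (adjusted p = 0.00102). *PIM1*, a kinase that acts with MYC, fell by a log2 fold change of -1.56 (adjusted p = 5.66e-05). *HUWE1*, a ligase, gave -0.93 (adjusted p = 0.00362), and -0.48 without WT-2 (adjusted p = 0.00256). *AURKA*, which stabilizes MYCN, gave -0.65 (adjusted p = 0.0174) and lost the call without WT-1 or WT-3. Without WT-2, all 18 passed, 11 higher and 7 lower, beside 67.2% of genes. Between the clones 3 were higher in CS16 and 1 lower, or 22.2% in all, beside 27.4% of genes (14.7% higher and 12.7% lower).

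Targets in ribosome biogenesis, a process MYC is known to drive, passed in 1 direction. In *SNAI1*-KO, 17 of 27 passed higher and 0 lower by edgeR, beside 31.1% and 32.6% of genes, with a median log2 fold change of 0.68. At an unadjusted p under 0.05, 0 were lower too, the lowest value being -0.25, and DESeq2 also passed 17. *RCL1*, an rRNA processing gene, rose by 2.64 (SE 0.17, adjusted p = 1.28e-07), from 6.70 to 10.5 CPM in WT to 51.4 to 58.0 CPM in the clones. *PES1*, needed to mature the large subunit, rose by 1.49 (adjusted p = 2.81e-05), and *POLR1B*, a subunit of RNA polymerase I, by 1.26 (adjusted p = 5.23e-05). In CS16 16 of 27 passed higher, beside 27.0% of genes, and in CS19 11 of 27, beside 26.3%, with 0 lower by edgeR in either, also at an unadjusted p under 0.05. The CS19 count was 7 of 27 without WT-1, CS19-1, CS19-2 or CS19-3, near the share over all genes. Without WT-2, 21 passed higher and 1 lower in CS19, beside 7189 and 6887 of 19768 genes. The counts were then 25 and 1 in CS16, beside 7059 and 7039 of 19391 genes. In *SNAI1*-KO they were 20 and 1, beside 6895 and 6738 of 20293 genes.

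The same targets were also higher in CS16 than in CS19. Here 19 of 27 passed higher and 0 lower by edgeR, beside 14.7% and 12.7% of genes, with a median of 0.30 beside -0.02 over all genes tested, and no value of the list was under 0.03. *NPM1*, the nucleolar chaperone nucleophosmin, held 3540, 3170 and 3420 CPM in CS16, 1500, 1880 and 1700 CPM in CS19 and 1420, 618 and 1720 CPM in WT. It exceeded CS19 in CS16 by a log2 fold change of 0.99 (SE 0.09, adjusted p = 4.54e-06). *NOP16* followed with 0.86 (adjusted p = 1.03e-05) and *TCOF1*, the treacle gene, with 0.68 (adjusted p = 6.97e-06). These genes were picked as the largest differences of the list between the clones. Leaving out any single library left 16 to 19 of 27 higher and 0 lower.

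Of the metabolic targets, 12 of 27 rose and 7 fell in *SNAI1*-KO, with a median of 0.33, and 70.4% passed in all beside 63.7% of genes. *PHGDH*, which opens serine synthesis, held 3.2, 4.56 and 2.87 CPM in WT and 307 to 390 CPM in the clones, a rise of 6.62 (SE 0.23, adjusted p = 1.10e-09). *MTHFD2*, of mitochondrial folate metabolism, rose by 2.11 (adjusted p = 1.15e-05), and *PPAT*, which starts purine synthesis, by 1.44 (adjusted p = 0.000161). *SLC2A1*, the glucose transporter GLUT1, held 538, 690 and 634 CPM in WT and 43.9 to 53.6 CPM in the clones, a log2 fold change of -3.69 (SE 0.13, adjusted p = 1.26e-09). *TYMS*, the thymidylate synthase gene, gave -1.63 (adjusted p = 0.00244), and -0.64 without WT-2 (adjusted p = 0.00128). Between the clones 13 of 27 were higher in CS16 and 3 lower (1 lower without CS16-1, CS19-2 or CS19-3), beside 14.7% and 12.7% of genes, with a median of 0.20, led by *GART* at 0.52 (adjusted p = 6.40e-05) and, in the other direction, *SHMT1* at -0.44 (adjusted p = 0.000473).

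Among cell cycle and translation targets 7 of 15 rose and 2 fell, or 60.0% beside 63.7% of genes, with a median of 0.43, which was 0.11 without WT-2. *CCND2*, cyclin D2, held 3.64, 3.08 and 2.51 CPM in WT, 163, 164 and 153 CPM in CS16 and 64.5, 68.3 and 69.6 CPM in CS19. It rose by 5.20 in *SNAI1*-KO (SE 0.47, adjusted p = 1.81e-06), and CS16 exceeded CS19 by 1.24 (adjusted p = 2.17e-08). *CDC25A*, a cell cycle phosphatase, rose from at most 79.5 CPM in WT to at least 190 CPM in the clones (adjusted p = 2.92e-06), and *MCM4*, of the replication helicase, by 1.31 (adjusted p = 3.18e-06). *E2F1* fell by a log2 fold change of -0.96 (adjusted p = 3.72e-05). *EIF4G1*, a translation initiation scaffold, gave -0.81 (adjusted p = 0.0103), and -0.38 without WT-2 (adjusted p = 0.0423).

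Of the genes known as repressed by MYC, 4 of 12 rose and 7 fell in *SNAI1*-KO, beside 31.1% and 32.6% of genes, with a median of -1.36. *GAS1* had no count in WT and 31.7 to 54.8 CPM in the clones, at least 250-fold higher. *CDKN2B*, which lies at 9p21, had no count in WT and 10.7 to 13.9 CPM in the clones, at least 75.1-fold higher. With both at these bounds the median of the list stays at -1.36. *CEBPA* rose from at most 0.057 CPM, or 1 count, in a WT library to 4.07 to 6.98 CPM (adjusted p = 3.12e-07). *CCND1*, cyclin D1, held 698, 1070 and 765 CPM in WT, 95.3, 87.0 and 85.2 CPM in CS16 and 11.9, 11.7 and 10.1 CPM in CS19, a log2 fold change of -4.08 (SE 0.72, adjusted p = 0.000405). CS16 exceeded CS19 by 2.99 for this gene (adjusted p = 2.38e-10). *GADD45B* gave -3.77 (adjusted p = 1.87e-09) and *KLF6* -2.97 (adjusted p = 1.29e-07). Between the clones 4 of 12 were higher in CS16 and 3 lower, beside 14.7% and 12.7% of genes.

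Targets of MLX with its partners were 6, of which 5 could be tested, 2 rose and 1 fell, or 60.0% beside 63.7% of genes, with a median of -0.29, which was 0.82 without WT-2, where 3 rose. *TXNIP*, a brake on glucose uptake, held 339, 204 and 376 CPM in WT, 20.7 to 23.8 CPM in CS16 and 34.5 to 36.2 CPM in CS19. Its log2 fold change was -3.43 (SE 0.24, adjusted p = 2.29e-07). *ARRDC4*, its relative, went the other way, from 3.08 to 6.77 CPM in WT to 28.4 to 29.5 CPM in the clones (2.53, adjusted p = 2.05e-06). *TKFC* rose by 1.38 (adjusted p = 0.000491). Between the clones *TXNIP* and *TKFC* were lower in CS16, by -0.69 (adjusted p = 4.53e-05) and -0.51 (adjusted p = 0.00311).

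The E-box was present in 8 of 22 ribosome biogenesis targets with a promoter entry (36.4%), 8 of 24 metabolic targets (33.3%), 5 of 12 cell cycle and translation targets (41.7%), 2 of 8 repressed genes (25.0%) and 2 of 5 MLX targets (40.0%), beside 7.26% of all windows. These lists hold genes already known as targets, so their shares describe the lists and are no result of these libraries. Each list gene had 1 window, while the 7.26% covers every window. *HSPD1* and *HSPE1* share 1 such site between their starts. Windows are shown for the genes named here for their change in *SNAI1*-KO as among the largest of their list that held the E-box, with it in capitals and in the direction of transcription.
PES1: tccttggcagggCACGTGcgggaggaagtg
RCL1: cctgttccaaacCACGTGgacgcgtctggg
PPAT: aacggagatttcCACGTGcagcaaatacag
GADD45B: ggttctcgccccCACGTGgggcgcccccgc
KLF6: cgcggggcgagtCACGTGgggggaggggga
ARRDC4: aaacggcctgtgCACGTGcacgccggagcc
In *PES1* (chr22:30591880-30591909, minus strand) and *RCL1* (chr9:4792936-4792965, plus strand) the E-box begins 14 and 5 bases after the start. In *PPAT* (chr4:56435780-56435809, minus strand), *KLF6* (chr10:3785289-3785318, minus strand), *GADD45B* (chr19:2475947-2475976, plus strand) and *ARRDC4* (chr15:97960481-97960510, plus strand) it begins at -182, -97, -168 and -210. *EIF4G1*, which was lower in the clones, held 2 E-boxes. The word was thus found at genes that rose and at genes that fell.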

How the data were processed

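Total RNA of 9 libraries was depleted of rRNA and sequenced as stranded pairs. Per the labels and the study's methods, the authors trimmed with Trimmomatic 0.36, aligned to GRCh38.p13 with STAR 2.7.2b and counted with featureCounts (Subread 2.0.0, gencode 38), keeping proper pairs of mapping quality of at least 30, without using strand and without reads that overlap several genes. The deposited values are raw counts of read pairs per gene, which limits antisense and overlapping genes. Library totals ranged from 19527195 to 28627777.

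Counts were filtered (filterByExpr), scaled by TMM and tested with edgeR 4.0.16 (quasi-likelihood, R 4.3.3), Benjamini-Hochberg over all genes, each comparison in its own fit: *SNAI1*-KO (6 libraries), CS16 and CS19 against WT, and CS16 against CS19. A gene passed at an adjusted p under 0.05. Levels between genes are CPM per kilobase of merged exons, which keep the order of TPM within a library. Nothing states that libraries of a group came from separate cultures, so p-values measure the spread between these samples, which may be technical. The members, the gene lists and the tests were chosen with earlier results of these data known. Of 191 list genes 189 matched. Lists covered further network genes, coactivators, corepressors, stability regulators, 5 kinds of target, noncoding genes of the loci and the markers given with the groups. Named were all members and further network genes, up to 3 genes per direction of each list with the largest change among those passing in *SNAI1*-KO, the nearest tested gene on each side of a member, and the 3 genes most like *MYC*, *MYCN* and *MXD4* among those of at least 1 CPM. Of the genes this rule names, 3 are not reported here. Genes named for CS16 against CS19 were picked after their values were seen. Alternatives were DESeq2 1.42.0, RLE and upper-quartile scaling, other filters, removal of the top 100 genes, a replicate block, 1 fit of all libraries, leaving out each library, glmTreat, a log2 fold change of 1, and order without length. DESeq2 with no filter and the ratio with *MXD3* among the antagonists were added after seeing the data. The fits were tested on simulated counts with 1 spread for all genes and no library set apart. There edgeR recovered 190 to 199 of 200 changed genes, which does not cover a library such as WT-2.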

Additional observations from a re-analysis of the deposited data

Results flagged for a closer look

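Between the clones, 4 members passed in the direct test of CS16 against CS19, and 0 did when all 9 libraries shared 1 estimate of spread. *MYC* was higher in CS16 by a log2 fold change of 0.65 and *MYCL* by 0.56, in each case in 3 of 3 libraries. *MXD1* was lower by -0.65, in 3 of 3 libraries. *MXI1* was higher by 0.27, with 2 of 3 CS16 libraries above every CS19 library, and it kept its call in 2 of 6 fits that left out a library. These are the same values as in the report, with no further sample behind them. In 10 groups of 6 clone libraries examined for a single library apart, 1 group for each member, none was found.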

How the results depend on the processing

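In *SNAI1*-KO against WT, 1 member passed with a log2 fold change of at least 2, and 2 did with no filter, where *MYCN* is tested, and 3 at a limit of 1. Coactivators passing ranged from 4 to 8 and stability regulators from 8 to 18 when single libraries were left out. In CS16 against WT, 3 members passed, 5 with no filter, 7 in 1 fit of all libraries and 3 to 8 when single libraries were left out. There 1 was past a log2 fold change of 2, with 2 under no filter, 1 to 2 when libraries were left out, and 3 at a limit of 1. In CS19 against WT, 3 to 8 passed when libraries were left out, and 2 were past a limit of 1. Between the clones, 0 passed in 1 fit of all libraries and 3 to 6 when libraries were left out. There 1 member was past a log2 fold change of 2 with no filter, and 0 to 1 when libraries were left out. Where *MYCN* was tested, its CS16 counts alone brought it in. The share of all genes passing moved too, without WT-2 from 55.6% to 72.7% in CS16 and from 52.9% to 71.2% in CS19. Shares for the remaining fits are not given, so these counts are no result about the members. With single libraries left out, *MNT* ranged from -0.87 to 0.34 in *SNAI1*-KO, -0.93 to 0.27 in CS16 and -0.78 to 0.43 in CS19, and *MYC* in CS19 from -0.29 to 0.01, in each case with the higher end without WT-2. *MXD4* in CS16 against CS19 ranged from -0.01, without CS16-3, to 0.11. Fewer samples or genes underlie several of these changes, and otherwise the cause was not tested. DESeq2, RLE and upper-quartile scaling and removal of the top 100 genes turned no member's direction. Levels near 0 limit *MYCN*, with 35 counts in CS16.

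The labels give libraries of different groups only a number in common. The deviations of same-numbered libraries correlated between -0.206 and 0.191, and those of unlike number between -0.213 and 0.219. With 3 libraries per group and WT-2 apart, these values cannot tell whether same-numbered libraries share a batch. With a replicate block, 4 coactivators passed in *SNAI1*-KO in place of 7, and 5 members in place of 6, *MGA* being lost. The block also lost *MLX* in CS19 and *MXI1* between the clones, and *MXD4* passed in CS19 at 0.82.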

Other observations

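Genes next to the members differed between the labels in both directions. Beside *MAX*, *RAB15*, a small GTPase gene, was at 6.10 ± 1.51 CPM in WT, 34.4 ± 3.3 in CS16 and 46.2 ± 7.58 in CS19 (log2 fold change in *SNAI1*-KO 2.72, adjusted p = 1.71e-06), and *FUT8*, the core fucosyltransferase gene, was at 218 ± 29.5, 50.4 ± 2.54 and 62.1 ± 3.61 CPM (-1.96, adjusted p = 2.95e-07). Beside *MXD4*, *ZFYVE28* was at 58.2 ± 41.1, 5.77 ± 0.871 and 8.46 ± 0.329 CPM (-3.03, adjusted p = 1.14e-05), while *HAUS3*, on the other side, gave -0.13 (adjusted p = 0.483). Beside *MGA*, *TYRO3*, a receptor kinase gene, gave 1.19 (adjusted p = 7.93e-05) and *MAPKBP1* gave -1.37 (adjusted p = 5.88e-05). *METTL16*, an RNA methyltransferase gene 4.46 kb from *MNT*, gave 1.25 (adjusted p = 1.28e-05), and *SGSM2*, on the other side, gave -0.58 (adjusted p = 0.0301), with -0.18 and an adjusted p of 0.138 without WT-2. *PCBP1-AS1*, 17.2 kb from *MXD1*, gave 1.73 (adjusted p = 1.18e-05).

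The neighbours of *MYCL*, *MXI1* and *MLX* did not pass in *SNAI1*-KO against WT. *TRIT1* and *MFSD2A*, 11.9 and 52.9 kb from *MYCL*, gave 0.25 (adjusted p = 0.2) and -0.45 (adjusted p = 0.0683). *ADD3* and *SMNDC1* beside *MXI1* gave 0.09 (adjusted p = 0.738) and -0.28 (adjusted p = 0.0845). *COASY*, 0.795 kb from *MLX*, gave 0.07 (adjusted p = 0.729). *GMCL1* beside *MXD1* gave 0.21 (adjusted p = 0.368).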
